A study of Drosophila melanogaster with 4 samples.

Results

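The comparison described here is that of female flies raised under hyperbaric normoxia (HN) with control females. HN is a raised air pressure with the oxygen supply of normal air, here 2 atmospheres absolute (ATA). The labels give both groups as wild-type w1118 Drosophila melanogaster, females, 10 days old, taken as whole bodies. HN flies spent development, from the fertilized egg to eclosion, in a pressure incubator at 25 °C and 50 ± 5% humidity with 12 h of light a day, and the adults were then kept in an ordinary incubator until sampling. Control flies had no pressure exposure in the labels. RNA of several flies was pooled for each array. The comparison holds 2 of the 4 arrays of the series, 1 control female and 1 HN female array, and the members were the arrays that the labels give as female. The other 2 arrays, control and HN males of the same strain and age, served to say how sex-biased each probe was and are set beside the female values.

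The pools differed in what happened before the adult stage, whereas the RNA was taken from adults. In a whole female fly the ovaries, with their nurse cells and eggs, give a large share of the RNA. Genes of the germ line and egg shell are therefore much brighter in females than in males, and genes of the testis and male glands are nearly silent. In RNA of whole bodies, fewer cells of a type and less RNA per cell cannot be told apart. The question was which transcripts differed in 10-day-old females between the pressure exposure and the control, by how much, at which signal, and on which side of the sex bias.

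Each array carried 43602 spots that were not controls, for 32162 probes, and the median signal was 191 on the control female array and 180 on the HN female array, against 356 and 453 on the control and HN male arrays. Of all probes, 67.7% and 68.4% were well above background on the control and HN female arrays, and 0 spots were saturated. The scanner recorded both female arrays and the HN male array together and the control male array in a separate scan, so that scan and treatment cannot be told apart in males. After scaling each array to its median, values are given as scaled signal, and a difference is the log2 ratio of HN over control, positive where HN was higher, whereas the methods describe control divided by test. With 1 array per group no difference has a replicate check, and no p-value can be given. The error of a single ratio was taken from probes printed at 2 spots, both kept and well above background on both female arrays. The SD of the log2 ratio between spots was 0.0947 over 7137 probes. This error covers the printing and reading of spots of one RNA pool and holds nothing of the spread between flies or pools.

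The labelled sex was checked with the few marker genes that carry a name. Vm34Ca, a protein of the vitelline membrane of the egg, read 27253 in control and 29200 in HN females, and 9.004 and 5 in control and HN males, where it was not well above background. The non-coding RNA roX2, part of the complex that raises transcription from the single X chromosome of males, read between 7.07 and 8.56 on its 2 probes in females, not well above background, and between 394 and 1115 in males. Of 11 female and 12 male markers looked for, 1 and 4 had a named probe. The testis gene soti was not well above background on any of the 4 arrays. The other named male markers could be read in females. The non-coding RNA roX1 was well above background on all its probes, at 74.4 to 811 in control and 33.8 to 109 in HN females. In control males its probes read 2434 to 24461. Dup99B read 6.06 in control and 30.2 in HN females, well above background in HN females alone, and 5111 and 5053 in males.

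Being well above background on either female array was required of a probe for the comparison. This held for 22546 probes, of which 21237 were well above background on both arrays, 771 on the HN array alone and 538 on the control array alone. Where a probe was well above background on 1 array alone, the ratio is a bound. The bright side was set against the higher of the dim side's own signal and the lowest signal that was well above background on that array, which was 15.13 on the control and 14.54 on the HN array.

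Most female transcripts differed little between HN and control. On both arrays together, 59.3% of the 21237 probes lay within 1.1-fold of the control signal, 84.4% within 1.2-fold and 96.4% within 1.5-fold. The median log2 ratio was -0.06, the 5th and 95th percentiles were -0.31 and 0.37, and the 1st and 99th were -0.81 and 0.80. A limit of 1.5-fold was passed by 3.83% of compared probes upward and 3.14% downward. These shares are the background for every count of named genes given here.

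The balance between higher and lower probes turned with the size of the change. Higher probes made up 54.9% of all probes past 1.5-fold. At 2-fold, 405 were higher and 423 lower, at 3-fold 173 and 212, at 4-fold 102 and 145, at 8-fold 21 and 54, and at 16-fold 4 and 21. The share of higher probes thus went from 54.9% at 1.5-fold to 16% at 16-fold. Restricted to probes that cleared background on both arrays, 136 were higher and 157 lower at 2-fold, 39 and 56 at 4-fold, 10 and 25 at 8-fold, and 3 and 8 at 16-fold.

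Repeat spots of one probe gave like ratios where each spot cleared background. Of the probes higher by more than 1.5-fold, 110 were printed at 2 spots that were each kept and well above background on both arrays. Both spots passed the limit for 93 (84.5%) of them. Of those lower, 115 had 2 such spots, and both passed for 100 (87.0%). Probes past the limit with a spot that did not clear background are left out of these counts. All 110 higher probes and 113 of the 115 lower ones had both spots on the same side of no change. A further 105 probes were printed at 10 spots that were all kept and well above background on both arrays. Their pooled SD between spots was 0.0745, and 0 of these probes passed the limit either way.

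Different probes of one transcript are a further check on the measurement, since they read the same RNA pool with different sequences. Only probes well above background on both arrays were paired, so that pairs with a dimmer probe are left out. Over 5865 pairs of probes from 3721 transcript identifiers, the median difference between the log2 ratios was 0.07. In 139 pairs the probe with the larger change was higher by more than 1.5-fold, and the other probe passed the limit in the same direction in 58 (41.7%) and shared its sign in 118 (84.9%). In 82 pairs the larger change was lower, and the other probe passed in 42 (51.2%) and shared its sign in 70 (85.4%). For changes above 4-fold, the other probe passed the limit in 6 of 7 higher pairs and in 14 of 14 lower pairs. The limit for the other probe is the same at each size, so that these shares are not comparable between sizes.

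Probes past the limit were mostly dim. The compared probes were split into 5 equal groups by their mean signal on the female arrays, with median signals of 56.2, 301, 1658, 6645 and 22787. From the dimmest to the brightest group, 25.0%, 5.30%, 2.31%, 1.09% and 1.13% of probes passed 1.5-fold. The dimmest group held 71.8% of all probes past the limit, and 1308 of the 1309 probes that were well above background on 1 array alone fell in it. Of the probes past the limit that cleared background on both arrays it held 41.9%.

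**Figure D1:**
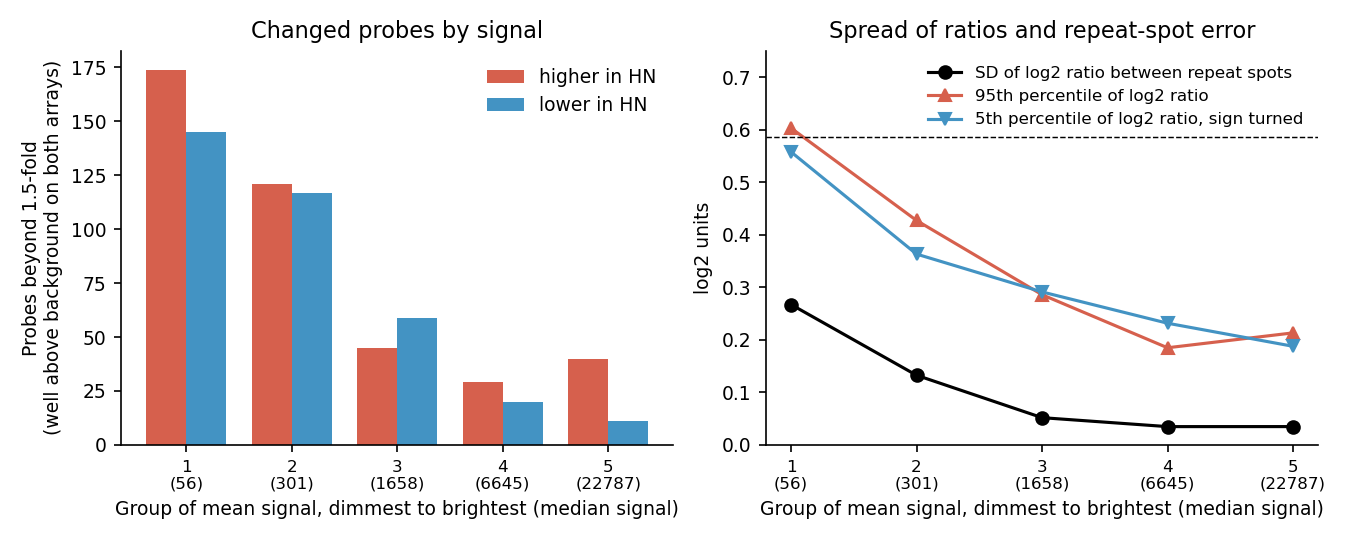
Left, number of probes higher (red) and lower (blue) by more than 1.5-fold in HN females in 5 groups of mean signal, among probes that cleared background on both, with the median signal of each group in parentheses. Right, the 5th (sign turned) and 95th percentiles of the log2 ratio in each group beside the SD of the log2 ratio between repeat spots, with the 1.5-fold limit dashed. The SD between spots went from 0.267 in the dimmest group to 0.0349 in the brightest, and counts went from 174 higher and 145 lower to 40 and 11.

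The error between repeat spots followed the same order. It was 0.267 in the dimmest group (522 probes with 2 spots), 0.133 in the next, 0.0519 in the middle group, and 0.0349 in both bright groups. A ratio of 1.5-fold is 0.58 on the log2 scale, so that it lay 2.19 SD from 0 in the dimmest group and 16.8 SD from 0 in the brightest. In the brightest group 40 probes were higher and 11 lower, and 38 of the 40 were unbiased between the sexes in controls. Changes above 4-fold on both arrays were found in every group, with 7 higher and 10 lower in the dimmest, 15 and 29 in the next, 9 and 14 in the middle, 5 and 1 in the fourth, and 3 and 2 in the brightest.

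**Figure D2:**
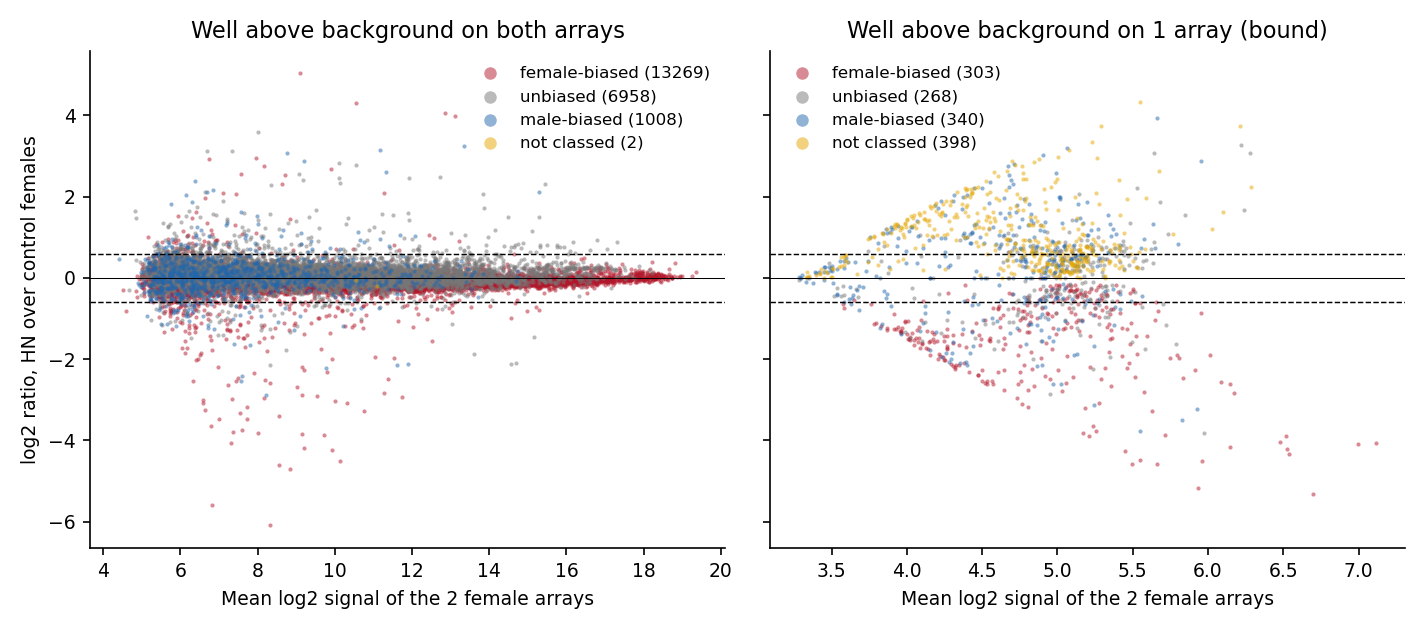
Log2 ratio of HN over control females (vertical axis) against the mean log2 signal of both female arrays (horizontal axis), 1 point per probe, for probes that cleared background on both arrays (left) and on 1 array alone (right, bounds), colored by sex bias in controls. Dashed lines mark 1.5-fold. The points of female-biased probes lie mostly below 0 and include the largest falls, down to -6.09.

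Sex bias was read from the control arrays: a probe was female-biased if its control female signal was more than 2-fold its control male signal, male-biased if the reverse held, and unbiased in between. The control female array is then part of both the class and the HN ratio. A probe that reads high there by chance is pushed toward the female-biased class and toward a lower ratio. Counts by class are therefore also given from the HN arrays, where the push is the other way, and from the mean of both treatments. In addition, a probe dim on the control female array cannot be female-biased by the control arrays. Of the compared probes, 400 could not be classed, and 253 of these were higher and 0 lower. Of the 400, 398 cleared background on the HN female array alone.

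Where both female arrays cleared background, female-biased probes lay slightly below and unbiased probes slightly above no change on signals scaled to the median. Where no change lies depends on the scaling. The median log2 ratio of all these probes was -0.06 here, 0.01 with the 75th percentile and -0.15 without scaling. The shares above 0 hold for the median scaling alone. The 13269 female-biased probes had a median log2 ratio of -0.09, and 19.1% of them were above 0. The 6958 unbiased probes had a median of 0.08, with 63.96% above 0, and the 1008 male-biased probes had a median of 0.02, with 52.3% above 0. With classes from the HN arrays the medians were -0.08, 0.06 and -0.02, and with classes from the mean of both treatments they were -0.08, 0.07 and -0.00. The order of the female-biased below the unbiased median held for these 3 sources of the class and in each of the 5 signal groups for classes from the control arrays and from the mean. In those groups the control-class medians, dimmest to brightest, were -0.03, -0.05, -0.09, -0.10 and -0.08 for female-biased and 0.12, 0.10, 0.05, 0.03 and 0.07 for unbiased probes. Where probes had 2 spots, taking the class from one spot and the ratio from the other gave a difference of -0.16 between these medians, beside -0.17 over all compared probes. Whether another pair of pools would show these shifts was not tested.

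**Figure D3:**
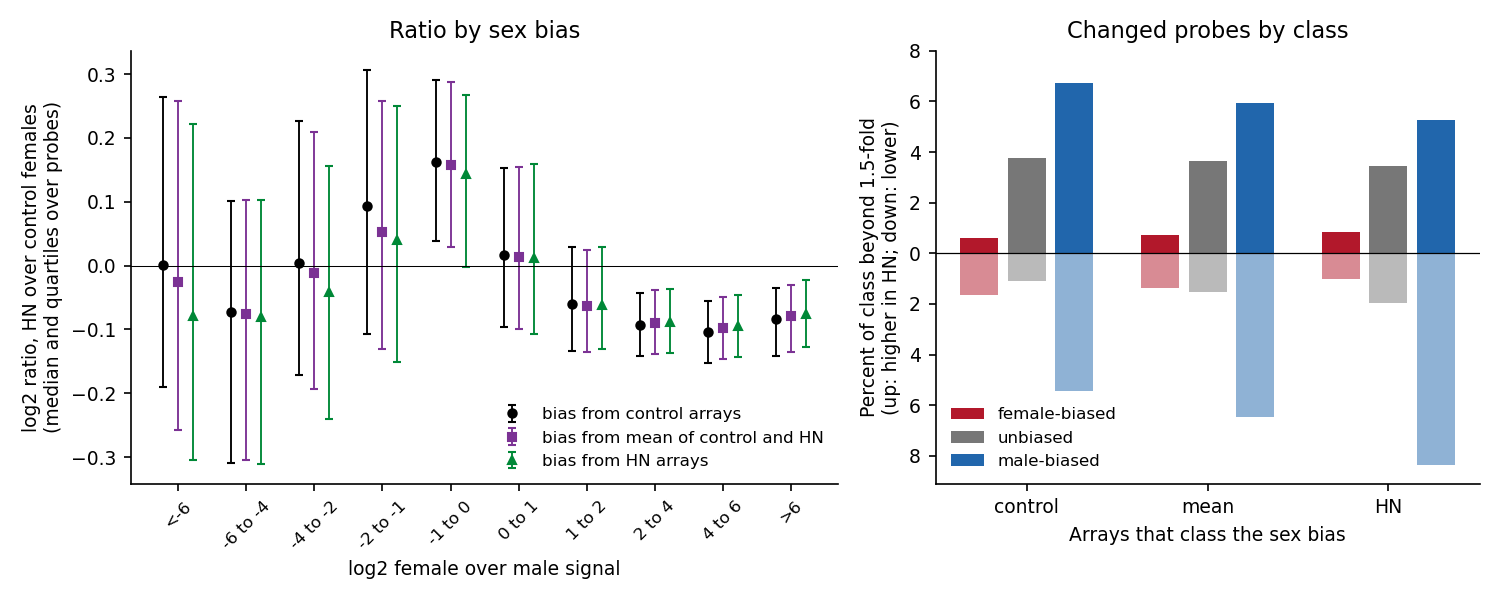
Left, median (symbols) and quartiles (bars) over probes of the log2 ratio of HN over control females in 10 bins of log2 female over male signal, with the bias taken from control arrays (black), HN arrays (green) or the mean of both (purple). Right, percent of each class higher (up) and lower (down) by more than 1.5-fold. The bin just on the male side of no bias had the highest median, 0.16 with the control arrays. With scaling to the median, all bins above 1 lay below 0 for each source.

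The shift followed the degree of bias up to a point. Along the log2 female over male signal of controls, the median ratio was 0.16 for 2727 probes between -1 and 0, 0.02 for 4231 between 0 and 1, -0.06 for 4434 between 1 and 2, -0.09 for 7030 between 2 and 4, -0.10 for 1431 between 4 and 6, and -0.08 for 374 above 6. On the male side it was 0.09 for 390 probes between -2 and -1, 0.00 for 295 between -4 and -2, -0.07 for 195 between -6 and -4, and 0.00 for 128 below -6. On scaled signals, the ratio was thus highest for probes with nearly equal or slightly male-leaning signal, and lower for both strongly biased ends. Where equal signal lies depends on the scaling. Before scaling, the control female and male arrays had medians of 191 and 356, and 75th percentiles of 3405 and 2073. After it, probes within 1.5-fold in females had a median log2 female over male signal of 1.66.

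Counts past the limit by class depended on which arrays gave the class. With the control arrays, 78 of the 13269 female-biased probes on both arrays were higher and 221 lower. With the HN arrays the counts were 110 and 134, and with the mean 93 and 181. Unbiased probes gave more higher than lower probes each time, with 263 against 76, 250 against 142 and 260 against 110. Male-biased probes gave 68 higher and 55 lower with the control arrays, 48 and 76 with the HN arrays, and 56 and 61 with the mean. On probes that cleared background on all 4 arrays, female-biased probes were 31 higher and 134 lower with control classes, 40 and 95 with the mean, and 59 and 54 with HN classes. The direction of the counts in female-biased probes therefore held for 2 of the 3 sources of the class there, whereas that in unbiased probes held for all 3, with 257 against 76, 260 against 109 and 249 against 136.

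The share of female-biased probes among the falls went up with their size and depended on the probes and class source used. Of the 56 probes on both arrays that were lower by more than 4-fold, 47 (83.9%) were female-biased by the control arrays, 44 (78.6%) by the mean and 36 (64.3%) by the HN arrays, beside 62.5%, 62.1% and 61.4% of all probes on both arrays. Among falls of 1.5 to 2-fold the shares were 55.4%, 45.6% and 33.3%. On probes that cleared background on all 4 arrays, 18, 15 and 8 of 27 falls above 4-fold (66.7%, 55.6% and 29.6%) were female-biased, beside 59.96%, 59.5% and 59.0% of all such probes, so that the share stood above that of all probes with the control arrays alone. The median signal of the 56 probes was 888 in control females and 108 in HN females. The 39 probes higher by more than 4-fold had a median of 219 in control and 1337 in HN females. By the control arrays 14 of them were female-biased, 15 unbiased and 10 male-biased. In the bin of strongest female bias, above 6 on the log2 scale, 24 of 374 probes (6.42%) were lower and 1 higher with the control arrays, while 11 were lower with classes from the mean and 1 with classes from the HN arrays.

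Transcripts limited to males could mostly not be read in females. Of 1955 probes at least 64-fold brighter in males than in females, chosen from the mean of both treatments, 260 were compared, and the median female signal of the 1955 was 7.74 in control and 7.72 in HN flies, below the lowest signal well above background. Background was cleared by 76 of them on the HN female array alone and by 60 on the control female array alone. The 124 on both had a median log2 ratio of -0.03, with 9 higher and 8 lower.

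The probes carry transcript identifiers or accessions and no gene symbols. RefSeq's gene table for Release 6 of the genome gave 412 of the 32162 probes (1.28%) a symbol, for 360 genes, so that the named genes are a small part of the array. Of the named probes, 268 were compared, and 16 (5.97%, from 15 genes) were higher and 14 (5.22%, from 10 genes) lower, beside 3.83% and 3.14% of all compared probes. Their median log2 ratio was -0.05 beside -0.06 over all compared probes, and their median signal was 1018 beside 1658. By class, 1 of 152 named female-biased probes was higher and 4 lower, 6 of 83 unbiased were higher and 1 lower, and 9 of 31 male-biased were higher and 9 lower. Over all probes compared, 15.1% of the male-biased were higher and 9.12% lower, so that the male-biased class has a higher background. Among the named probes past the limit, 18 of 30 were male-biased, and in females most of these were dim. The 9 of 31 each way lay above the shares of the class. Of the 9 higher ones 2 cleared background on both female arrays, and of the 9 lower ones 4 were probes of the single gene roX1. Probes without a FlyBase transcript identifier were dimmer: 14.1% of 1972 consensus-sequence probes passed the limit, with a median signal of 150, against 5.33% of 17567 FlyBase transcripts with a median signal of 3017.

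The gene Ilp4 (chromosome 3L), an insulin-like peptide, had the largest fall of any named gene. One probe read 394 in control and 31.2 in HN females, 12.6-fold lower, and its 2 spots gave log2 ratios of -3.80 and -3.52. A second probe read 355 in control and 23.7 in HN females, not well above background there, which is at least 15.0-fold lower. In males both probes were between 5.29 and 7.97 and not well above background. Ilp4 was thus female-biased and lower on both of its probes. With normexp, a background correction that adds an offset of 50 and so shrinks ratios of low signals, the log2 ratios were -1.96 and -1.83 in place of -3.66 and -3.90.

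The non-coding RNA roX1 (chromosome X), partner of roX2 in the dosage compensation complex of males, was lower on all 4 of its probes in HN females. The brightest probe read 811 in control and 109 in HN females, 7.44-fold lower. The next read 454 and 78.4, 5.80-fold lower, and the third 449 and 83.6, 5.37-fold lower. The dimmest read 74.4 and 33.8, 2.20-fold lower. The same probes in males read 24461, 8592, 15933 and 2434 in control and 23273, 7754, 15319 and 2448 in HN flies, so that their log2 ratios in males lay between -0.15 and 0.01. The fall in females on the first 3 probes was 18.3 to 21.8 times the SD between repeat spots of like signal, 0.133, whereas the dimmest probe lay in the group whose SD was 0.267. With normexp the 4 log2 ratios were -2.16, -1.70, -1.62 and -0.34, the last within the limit.

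Of transcription factor genes that pattern the embryo, slp1 and btd were also lower. The forkhead factor gene slp1 (2L) read 424 in control and 175 in HN females, 2.43-fold lower, with its 2 spots at -1.30 and -1.25 on the log2 scale, and 214 and 195 in males. The zinc-finger gene btd (X) read 110 and 70.4 in females, 1.57-fold lower, and 36.0 and 35.3 in males. It lost the limit with scaling to the 75th percentile (-0.58) and with normexp (-0.34). E(spl)mbeta-HLH (3R), a Notch-responsive repressor, read 91.6 and 66.3, a log2 ratio of -0.47 that does not pass the limit. In males the log2 ratios of slp1 and btd were -0.13 and -0.03. These 3 genes were picked out by the size of their change, and no list of patterning genes was counted.

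The other lower named genes were dim in females and, except for mthl11, strongly male-biased. CG10089 (3L) is printed at 10 spots, of which 9 were kept on both arrays. Its mean was 180 in control and 75.6 in HN females, 2.39-fold lower, and its spots ranged from -1.45 to -0.89 with an SD of 0.163. In males it read 6306 and 5638. The antisense RNA asRNA:CR43465 (2L) read 78.4 and 44.9 in females, 1.75-fold lower, and lncRNA:CR32657 (X) read 288 and 180, 1.59-fold lower. In control males they read 647 and 16759. Well above background in control females alone were lncRNA:CR33218 (51.0 and 18.5, at least 2.75-fold lower), the female-biased methuselah-like receptor gene mthl11 (30.7 and 18.5, at least 1.67-fold) and CG15625 (38.6 and 23.6, at least 1.64-fold). With the authors' value table the level set for a dim HN signal was higher. The bound of CG15625 was then -0.41 on the log2 scale, within the limit, and that of lncRNA:CR33218 -0.81. The 2 spots of mthl11 disagreed, at -1.60 and 0.12. With normexp CG10089 stayed past the limit at -0.67, and the other genes of this paragraph lay within it.

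Genes of the cuticle and chitin list were higher or near the control level. Of its 4 named genes, on 5 probes, 2 genes passed the limit upward on 3 probes and 0 downward, with a median log2 ratio of 0.88 over probes and of 0.56 over the means of the 4 genes, beside -0.06 over all compared probes. Cpr97Eb (3R), a cuticle protein of the family with a chitin-binding domain, read 278 in control and 711 in HN females, 2.56-fold higher, and 235 and 790 in males. CG15021 (3L) read 1165 and 2234 on one probe and 1262 and 2327 on another, 1.92-fold and 1.84-fold higher, and was the brightest named gene past the limit in females. In males CG15021 read 2896 and 6360, and 3302 and 6899, on the same probes, log2 ratios of 1.14 and 1.06. Cpr49Ag (2R) of the same family as Cpr97Eb read 4238 and 4930, a log2 ratio of 0.22, and the mucin-related gene Mur11Da (X) read 1343 and 1368, a log2 ratio of 0.03. Earlier results on these data had already shown the first 2 genes to be higher. Their place on the list and the list medians are therefore not independent evidence.

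Of the 16 named probes that were higher, 9 were male-biased, 6 unbiased and 1 female-biased. The female-biased one was that of Zip42C.2 (2R), of the ZIP family of zinc transporters, which read 108 in control and 267 in HN females, 2.47-fold higher. In males it was at the floor of 5 in control and at 39.6 in HN flies. CG15254 (2L) read 216 and 376 in females, 1.74-fold higher, and 134 and 153 in males. CG13160 (2R) read 124 and 231 on one probe, 1.86-fold higher, and 140 and 209 on another, 1.49-fold higher and just inside the limit. CG13160 in males read 108 and 97.0, and 91.7 and 92.1, on the same probes. Of these 3 genes, CG15254 and CG13160 were higher in females while their male log2 ratios lay between -0.15 and 0.19.

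Near the limit the spots of a probe mattered, and with normexp CG13160, CG13954, CG43897 and CG12483 lay within it. CG13954 (2R) read 35.1 and 66.7, 1.90-fold higher, but its 2 spots gave 0.35 and 1.49 on the log2 scale. CG43897 (3L) read 34.0 and 56.0, 1.65-fold higher, with spots at 0.25 and 1.19, and lay within the limit in the authors' value table (0.23). CG12483 (3L) read 336 and 505, a log2 ratio of 0.59 just past the limit, and its other probe read 340 and 490, a log2 ratio of 0.53. In males the log2 ratios were 0.16 for CG13954, 0.86 for CG43897, and 0.56 and 0.80 for CG12483 on the same probes. Just inside the limit were asRNA:CR42860 (3L; 70.2 and 103) and CG17350 (2L; 186 and 269), with log2 ratios of 0.55 and 0.53. Among female-biased genes, the largest named difference upward after Zip42C.2 was that of snRNA:U1:21D (2L), an RNA of the spliceosome, at 41166 and 51201, a log2 ratio of 0.31 that does not pass the limit. U1 RNA has several near-identical gene copies, and which of them the probe reads is uncertain.

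The 6 largest named bounds upward were all of male-biased genes. Such bounds are dim on the control female array and so cannot be female-biased by the control arrays. Among all probes that cleared background on the HN female array alone, 0 were female-biased, 148 unbiased, 225 male-biased and 398 not classed. The class of these bounds is thus largely set by the filter. lncRNA:CR43605 (2R) read 7.32 in control and 69.6 in HN females, at least 4.60-fold higher, and 264 and 260 in males. asRNA:CR43637 (X) was at least 3.03-fold higher (13.2 and 45.8), lncRNA:CR41443 (2R) at least 2.42-fold (6.43 and 36.5) and asRNA:CR43159 (3L) at least 2.24-fold (24.9 and 55.8). A second probe of asRNA:CR43159, well above background on both arrays, read 46.0 and 45.3, so that the 2 probes disagree. The nuclear receptor gene eg (3L) was at least 2.01-fold higher (15.8 and 31.8). Dup99B (3R), a peptide of the male ejaculatory duct, was at least 2.00-fold higher (6.06 and 30.2) and read 5111 and 5053 in males. The HN female signals of these 6 genes lay between 30.2 and 69.6. The bounds were also set on the authors' value table, where the level used for a dim control signal was higher. There lncRNA:CR43605, asRNA:CR43637 and lncRNA:CR41443 had log2 ratios of 1.2005, 0.60 and 0.27 in place of 2.20, 1.60 and 1.27. These steps are alike, so that they come from the bound and not from the HN signals. The bounds of eg, Dup99B and lncRNA:CR41443 did not pass the limit there. With normexp all 6 were within the limit.

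**Figure D4:**
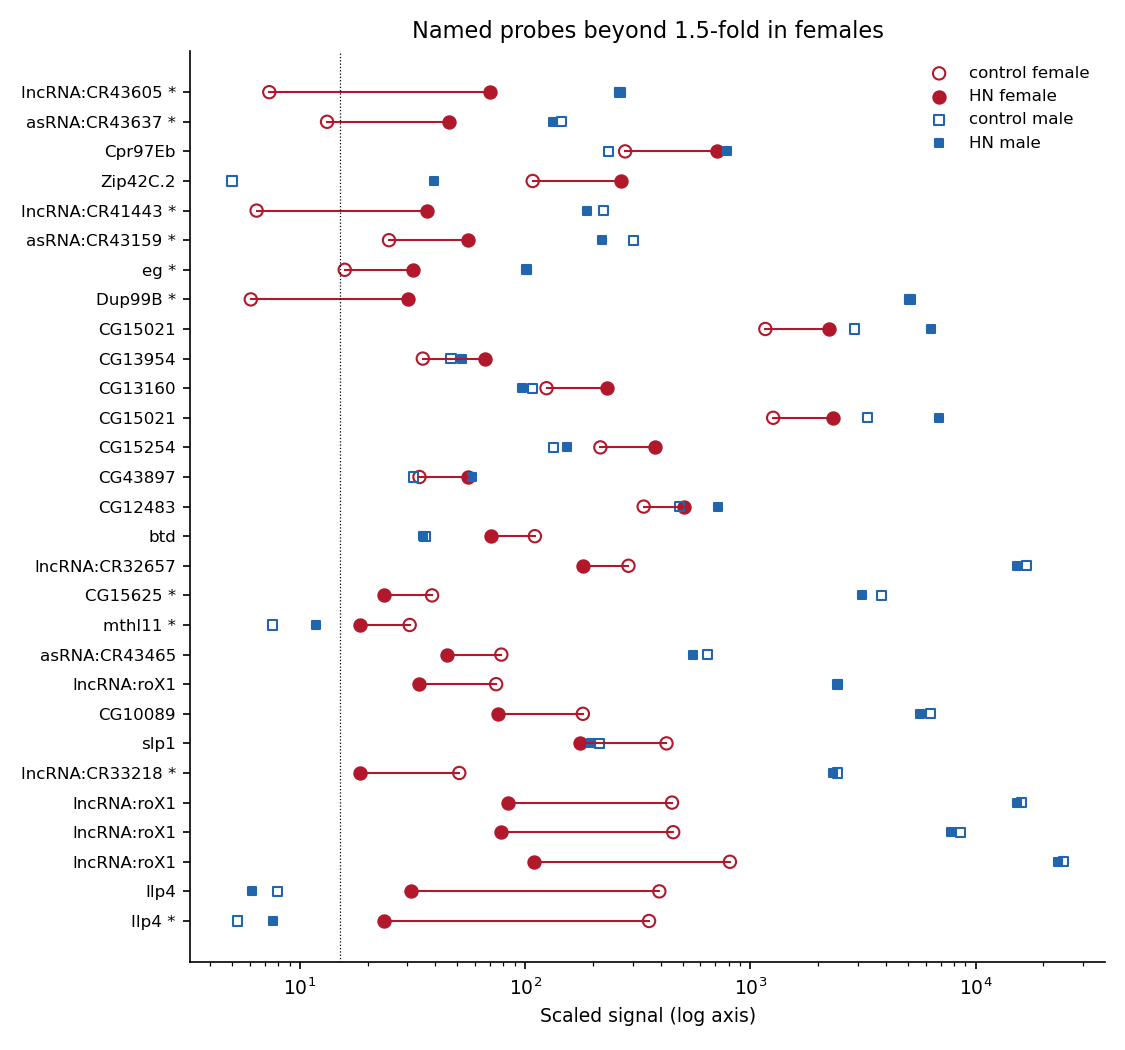
Scaled signal (log axis) of 29 of the 30 named probes past 1.5-fold in females, in control females (open circles), HN females (filled circles), control males (open squares) and HN males (filled squares), ordered by log2 ratio in females. Asterisks mark probes well above background on 1 female array alone, and the dotted line is the lowest signal well above background on the control female array, 15.13. The 4 roX1 probes are lower in HN females with nearly unchanged male signals, from 2434 to 24461 in control males.

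Other gene groups could be read only through a few named members. Non-coding RNAs had 129 named genes, of which 87 probes were compared, and 4 were higher and 7 lower with a median log2 ratio of -0.04. All 11 of these were male-biased, from 20 male-biased non-coding probes compared, a class in which 15.1% of all probes were higher and 9.12% lower. The 4 higher ones were bounds, which the control arrays cannot class as female-biased, and 4 of the 7 lower ones were the probes of roX1. Of the 46 female-biased and 20 unbiased ones, 0 passed the limit. The 3 named detoxification genes did not pass it in females: Ugt303A1, a UDP-glycosyltransferase, had a log2 ratio of -0.35, and the cytochrome P450 genes Cyp9c1 and Cyp4d20 had -0.19 and 0.15. In males these genes had -0.61, -0.43 and -0.18. The 3 digestive proteases alphaTry, epsilonTry and Jon65Aiii did not pass the limit in females either, with log2 ratios of 0.05, 0.09 and 0.18 at signals between 136273 and 257128. These proteases belong to families of similar genes, and cross-hybridization between them was not tested. Vm34Ca, the only named egg-shell gene, had 0.10, and of the male gland and testis list f-cup had -0.11 and Dup99B passed as a bound. Of the chemosensory list, Os-C had -0.15 and Ir7b was not compared. 0 genes of the stress and antioxidant list and 0 of the immune list had a named probe, so that these groups were not analysed here. CG6283 (3R), among the 3 lowest unbiased named probes, read 16821 and 12316, a log2 ratio of -0.45, and its SD between spots of like signal was 0.0349. In males CG6283 read 18465 and 10718, a log2 ratio of -0.78. The synaptic adaptor gene nwk (3L) also had -0.45 in females, at 92.2 and 67.6, where the SD was 0.267, and -0.07 in males.

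The very largest changes were in transcripts without a gene name in the table. FBtr0075620 read 2629 in control and 38.6 in HN females, a log2 ratio of -6.09 with its 2 spots at -6.25 and -5.93, and was at the floor of 5 on both male arrays. FBtr0075674 read 782 and 16.1, a log2 ratio of -5.60, but its spots lay far apart, at -6.82 and -4.39. A second, brighter probe of FBtr0075674 read 1846 and 76.0, a log2 ratio of -4.60, and in males 27.9 in control and 11.1, not well above background, in HN flies, a bound of -1.33. In the other direction, FBtr0075750 read 96.1 and 3145 in females, a log2 ratio of 5.03, and 9.38 and 192 in males, a bound of 4.18. Its other probe was between 5 and 8.09 and not well above background on any array, so that the probes of this transcript disagree. FBtr0079808 read 336 and 6643, a log2 ratio of 4.30 with spots at 4.30 and 4.31, and 83.0 and 382 in males, a log2 ratio of 2.20. Its other probe read 20.3 and 270 in females, a bound of 3.73. Both of these rises were also higher in HN males, whereas FBtr0075620 could not be read in males and FBtr0075674 only on its brighter probe. With normexp the log2 ratios of the 4 first probes were -4.37, -2.91, 3.83 and 3.92.

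The male values beside these changes differed by direction. Of the 39 probes higher by more than 4-fold in HN females, 32 were well above background on both male arrays, with a median male log2 ratio of 2.24. Of these 32, 29 were higher by more than 1.5-fold in males and 1 lower. For the 97 probes higher by 2 to 4-fold the male median was 0.83 over 80 probes, with 50 higher and 3 lower, and for the 273 higher by 1.5 to 2-fold it was 0.37 over 244, with 78 and 6. For the 20476 probes within 1.5-fold, the male median was -0.05 over 19137 probes, with 306 higher and 230 lower.

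On the lower side the male medians stayed near 0. They were -0.12 over 152 probes for falls of 1.5 to 2-fold, -0.04 over 86 for falls of 2 to 4-fold and -0.15 over 27 for falls above 4-fold. Past 1.5-fold in males, 18 were lower and 14 higher in the first of these groups, 10 and 14 in the second, and 9 and 4 in the third. Of the 56 probes lower by more than 4-fold in females, 19 were not well above background on either male array. The male medians leave out these and any probe that cleared background on 1 male array alone. A fall out of range in HN males is therefore not counted in them. The median female over male signal of the 56 in controls was 5.01 on the log2 scale. The male comparison shares no array with the female one, but the scan of the control male array differs from that of the other 3, and no test of the difference between sexes was made.

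**Figure D5:**
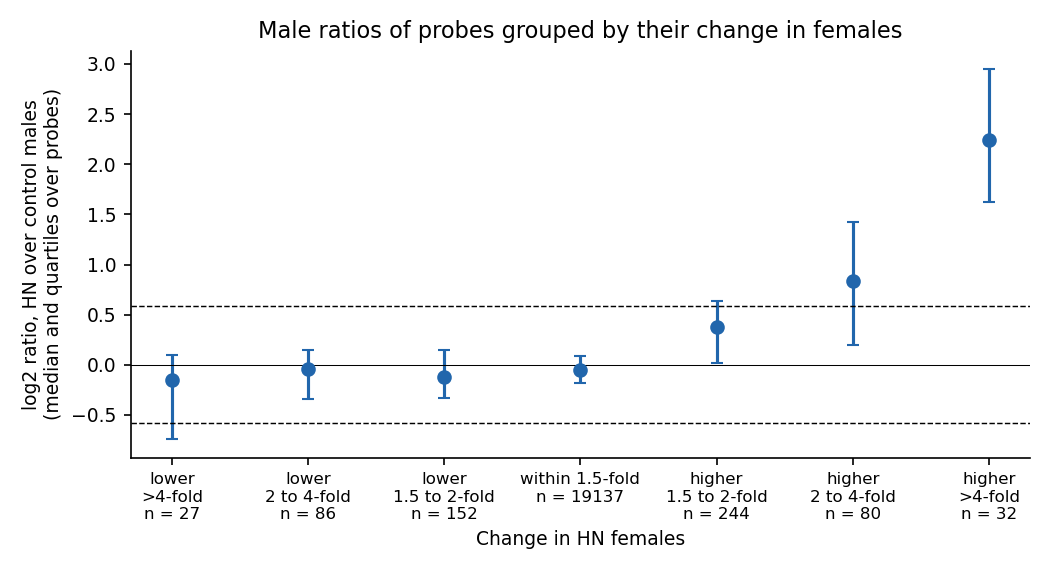
Median (points) and quartiles (bars) over probes of the log2 ratio of HN over control males, for probes grouped by their change in HN females and well above background on all 4 arrays, with n under each group and 1.5-fold dashed. The male medians are 0.37, 0.83 and 2.24 for the groups higher in females and between -0.15 and -0.04 for the groups lower in females.

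The 50 largest rises and falls on both female arrays show the same contrast by probe. The smallest of the 50 rises was 1.61 on the log2 scale. The rises came from 46 identifiers, with 16 female-biased, 21 unbiased and 13 male-biased. In control females they ranged from 16.1 to 19938, with a median of 149, and in HN females from 50.5 to 98149, with a median of 948. In males, bounds included, 43 of them were also higher by more than 1.5-fold and 1 was lower. The smallest of the 50 falls was 2.14 in size. The falls came from 42 identifiers, with 44 female-biased, 1 unbiased and 5 male-biased by the control arrays. They had a median of 806 in control and 105 in HN females, from 194 to 9390 and from 16.1 to 1500.4. In males 8 of them were lower by more than 1.5-fold, 6 were higher, and 19 were not well above background on either array. The median control male signal was 22.7 for the falls and 137 for the rises, so that a fall had less room to show in males. Since these probes were picked by their female ratio, their female values are a description.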

How the data were processed

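Whole-body RNA of control and HN females (1 array each) was compared, and the male arrays were used for sex bias. The authors deposited intensity values as the Feature Extraction software (11.5.1.1 in the file header; the methods name an earlier release) wrote them, background-subtracted and unscaled, with a table of 1 linear, unscaled intensity per probe. The methods set values under 5 to 5 and scale each chip to its 50th percentile; both steps were applied here. Control spots and feature outliers were left out, spots averaged as log2, and arrays scaled to their median over all non-control probes. A probe was well above background where at least 50% of its kept spots were. With 1 array per group no test was run. The number of arrays limits the precision.

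Alternatives were the 75th percentile, no scaling, quantile and loess normalization, normexp background correction with an offset of 50 (limma 3.58.1, R 4.3.3, used for nothing else), the authors' table, other filters, limits and class sources. For normexp the median spot signal and the median local background were used. Calculations ran in Python 3.11.15 with pandas 2.3.3, numpy 2.4.6 and statsmodels 0.14.6, and were tested on simulated data. Named genes were, among probes with 1 symbol, the 12 highest and 12 lowest ratios on both arrays, the 3 highest and 3 lowest of each sex-bias class, up to 6 bounds each way, list members, and by identifier the 2 largest rises and falls. The members, lists and rules were chosen with earlier results of these data known. Lists covered cuticle and chitin, egg shell and yolk, male gland and testis, stress and antioxidant, detoxification, immune, digestion, chemosensory and non-coding RNA genes. The array design rests on an earlier assembly than the gene table, so no coordinates are given.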

Additional observations from a re-analysis of the deposited data

How the results depend on the processing

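With 1 array per group these settings change how a pair of arrays is read and say nothing about replication. Higher and lower probes past 1.5-fold, 863 and 709, were 250 and 268 with normexp, of which 250 and 265 were among those first counted, 409 and 352 where both female arrays cleared background, 356 and 265 on all 4 arrays (a setting chosen after seeing the data), and 2251 and 1628 with no filter on dim probes. At 2-fold they were 405 and 423 and at 3-fold 173 and 212. The other settings stayed within 1.5 times the first counts, among them 721 and 850 without scaling and 1039 and 632 with the 75th percentile. More probes were therefore lower than higher without scaling, with normexp and at the 2-fold and 3-fold limits. The median of female-biased minus unbiased probes, -0.17, was -0.0674 without scaling, which also reassigns the classes since male arrays were brighter, and lay between -0.18 and -0.10 in the other settings. That of male-biased minus unbiased probes, -0.03, was 0.18 without scaling and between -0.07 and 0.03 otherwise. Female-biased probes over all those compared were 78 higher and 459 lower. They were 357 higher and 134 lower with classes from the HN arrays, and 290 higher and 385 lower with classes from the mean. Both of these class settings were chosen after seeing the data. With control classes, 0 of the female-biased probes cleared background on the HN female array alone and 303 on the control female array alone. With HN classes these were 356 and 0, so that the filter in part sets these counts. Of 318 values of named probes under other settings, 0 of those past the limit changed sign, and 29 crossed the limit. Normexp accounts for 17 of these, from dim probes: lncRNA:CR43605, for example, gave 0.58 in place of 2.20, and the dimmest roX1 probe -0.34 in place of -1.14. With the authors' table Dup99B gave 0.00, eg 0.07, lncRNA:CR41443 0.27, CG43897 0.23 and CG15625 -0.41. Except for CG43897 these are bounds, whose level for the dim side was higher with that table. The 75th percentile moved btd within the limit and CG17350, asRNA:CR42860 and the second CG13160 probe past it. Low signal over background, in the dimmest group of probes, sets what can be read. No paired analysis was possible because each group has 1 array and the labels give no replicate numbers.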
